A study of Homo sapiens with 6 samples.

Results

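Apolipoproteins are the protein part of lipoproteins, the particles that carry cholesterol and triglycerides through blood. APOB is the large, non-exchangeable protein of the very-low-density and low-density particles that the liver secretes, whereas APOA1 and APOA2 form the scaffold of high-density lipoprotein, and the smaller exchangeable proteins move between particles and regulate lipases and receptors. The liver makes most of them, and HepG2, a human liver tumour cell line, is widely used to study their synthesis and secretion. The genes described here are the 10 of the 19846 in the deposited table whose symbol is APOA1, APOA2, APOA4, APOA5, APOB, APOC1, APOC3, APOE, APOH or APOM. They were chosen by name, and all 10 passed the filter on low counts.

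Messenger RNA was sequenced from HepG2 cells grown in 3D in an interwoven hollow fibre bioreactor (3 samples) and from HepG2 cells grown in 2D in 6-well plates (3 samples), both labelled passage 7-9. The 3D cells received a recirculated and continuously fed medium of EMEM and DMEM in equal parts with serum, antibiotics and GlutaMAX, and the 2D cells EMEM that was refreshed every 2 days. No supplement is named for the 2D medium. Culture form, medium and feeding therefore changed together and cannot be told apart, and no other treatment or genetic change is labelled for either group. Nothing in the labels ties the samples of either group to separate cultures, and the p-values accordingly reflect sample-to-sample spread that may be technical. In bulk RNA, fewer cells that make a transcript and less of it per cell cannot be told apart.

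Library totals were 9530820 to 15897619 estimated counts in 3D and 16270376 to 17943529 in 2D, with the lowest in 3D replicate 1. That library also lay low for the genes of interest: 8 of the 10 were lowest in it among the 3D libraries. In 3D replicate 3, 8 of the 10 were highest. Neither share was computed over all tested genes. For 6 of the 10, 3D replicate 1 held under 0.7 of the mean of 3D replicates 2 and 3. It did so for 12.1% of all tested genes, whose median ratio was 0.984. All 13 hepatocyte markers were detected in every library, with summed levels of 29239 to 47429 CPM (counts scaled to a common library size by the trimmed mean of M values, TMM) in 3D and 28355 to 32822 CPM in 2D. The lowest of the 3D sums was again that of replicate 1.

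Of the 10 apolipoprotein genes, 4 were higher in 3D than in 2D, namely APOA1, APOA4, APOA5 and APOC3. APOB and APOM were lower in 3D, and APOA2, APOC1, APOE and APOH did not pass the test (edgeR quasi-likelihood test, Benjamini-Hochberg adjusted p under 0.05 over 15314 tested genes). The background was high: by the same rule 36.6% of all tested genes were called, 19.0% higher and 17.6% lower in 3D. The share of apolipoprotein genes called, 6 of 10, has to be read against that. The same 6 genes showed no overlap between the 3 libraries of each group, a pattern found in 50.5% of all tested genes, in 25.6% with 3D above and in 24.9% with 3D below. The median log2 fold change of the 10 was 0.25, against 0.02 over all tested genes.

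**Figure D1:**
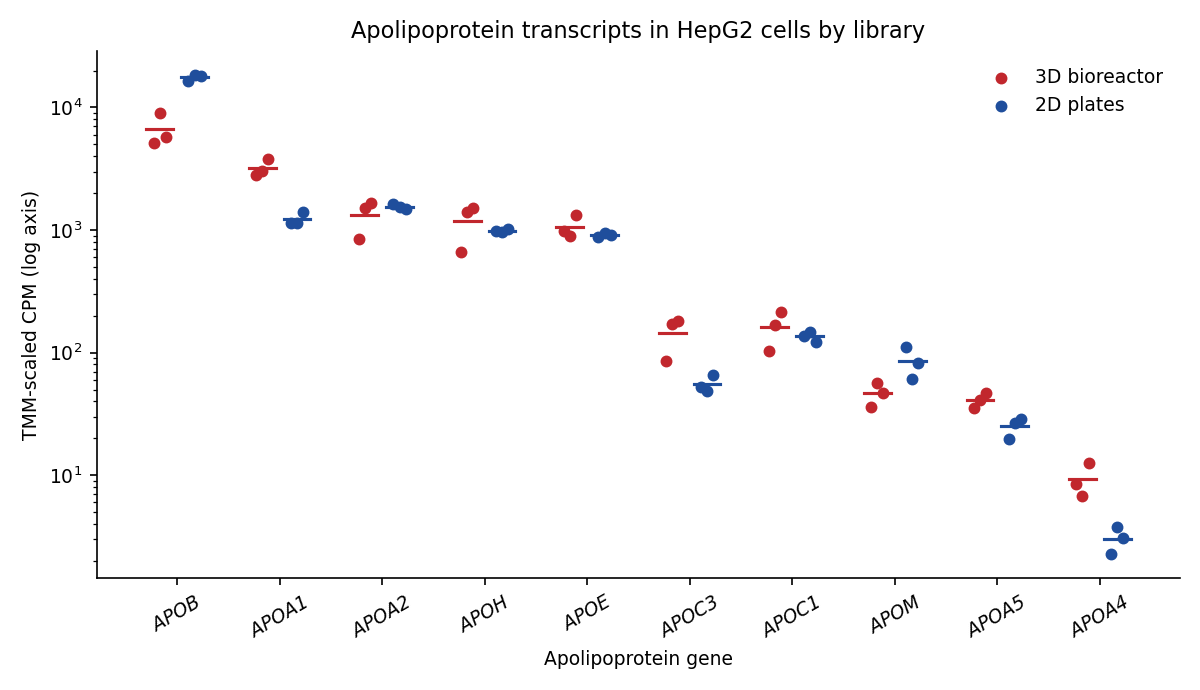
TMM-scaled CPM of the 10 apolipoprotein genes on a log axis, with 1 point per library, 3D left of 2D for each gene and a bar at the mean of the 3 libraries. APOA1, APOA4, APOA5 and APOC3 lie higher in every 3D library than in any 2D library, APOB and APOM lie lower, and the groups overlap for APOA2, APOC1, APOE and APOH.

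The 4 genes that rose are the 4 members that stand together on the long arm of chromosome 11. APOA1 and APOC3 lie 2677 bases apart there, APOC3 and APOA4 6398 bases apart, and APOA4 and APOA5 28278 bases apart. Their proteins differ in role: APOA1 activates the enzyme LCAT on high-density particles, APOC3 inhibits triglyceride clearance, APOA5 promotes it, and APOA4, mostly an intestinal protein in humans, is carried on chylomicrons and high-density particles. The promoter windows of APOA4 and APOA5 are shown because both genes rose and both windows hold motifs read by nuclear receptors. The sequences are from RefSeq (GRCh38.p14) and cover the 250 bases before each start, 5′ to 3′ on the minus strand, at chr11:116823305-116823554 for APOA4 and chr11:116792421-116792670 for APOA5. Capitals mark matches to 1 of 5 motifs searched on both strands. These were TATAAA, the TATA box, then AGGTCA and its variant GGGTCA, which are nuclear receptor core motifs, then AAAGTCCA, the core of the motif of the hepatocyte receptor HNF4A, and last CACGTG, the E-box read by USF factors. These letters were chosen with the windows in view.
APOA4: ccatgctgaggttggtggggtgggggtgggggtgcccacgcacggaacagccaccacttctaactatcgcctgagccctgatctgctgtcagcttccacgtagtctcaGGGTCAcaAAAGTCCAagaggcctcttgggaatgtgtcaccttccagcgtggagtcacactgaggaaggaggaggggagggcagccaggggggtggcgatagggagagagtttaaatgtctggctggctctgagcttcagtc
APOA5: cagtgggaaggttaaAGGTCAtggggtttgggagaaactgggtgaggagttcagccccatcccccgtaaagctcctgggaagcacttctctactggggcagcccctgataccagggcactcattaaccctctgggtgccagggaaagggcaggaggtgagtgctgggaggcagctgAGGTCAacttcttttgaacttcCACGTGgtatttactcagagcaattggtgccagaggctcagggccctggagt

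In the APOA4 window, GGGTCA lay at -142 to -137 from the start and the HNF4A core at -134 to -127, with no overlap between them. The APOA5 window held AGGTCA at -235 to -230 and at -74 to -69, and the E-box at -52 to -47. Of 35116 promoter windows of the same length, 10.7% held the TATA box, 12.1% AGGTCA, 12.1% GGGTCA, 6.34% the E-box and 0.980% the HNF4A core on either strand. A match of this kind describes letters only and is no evidence of binding.

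APOA1 (chr11:116835751-116837951, minus strand, hg38 as in the deposited table) had 2809.7, 3015 and 3832 CPM in 3D replicates 1 to 3, against 1135, 1145 and 1415 CPM in 2D replicates 1 to 3. Every 3D library stood above every 2D library. The mean was 3219 ± 541 CPM in 3D and 1232 ± 159 CPM in 2D (SD, n = 3 each), a log2 fold change of 1.39 ± 0.17 (SE) or 2.61-fold (edgeR quasi-likelihood test, Benjamini-Hochberg adjusted p = 0.000183). APOA1 took 0.294 to 0.375% of all counts in 3D and 0.111 to 0.142% in 2D.

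APOC3 (chr11:116829706-116833073, plus strand), which lies on the opposite strand to APOA1, had 86.1, 171 and 180.3 CPM in the 3D libraries and 52.6, 48.4 and 65.7 CPM in the 2D libraries. 3D replicate 1 stood closer to the 2D libraries than to the other two 3D libraries, at 0.490 of their mean, but did not overlap with 2D. The means were 146 ± 51.9 CPM in 3D and 55.5 ± 9.01 CPM in 2D (SD, n = 3 each), 2.63-fold higher in 3D (log2 fold change 1.39 ± 0.26, edgeR quasi-likelihood test, Benjamini-Hochberg adjusted p = 0.00378).

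APOA4 (chr11:116820700-116823307, minus strand) was the least abundant of the 10 in both cultures, with 8.43, 6.72 and 12.6 CPM in 3D and 2.25, 3.76 and 3.05 CPM in 2D. It had 521 counts in all and the largest standard error of the 10. The groups stood apart, and the fold change of 3.05 was the largest of the 10 (log2 fold change 1.61 ± 0.28, edgeR quasi-likelihood test, Benjamini-Hochberg adjusted p = 0.00136). APOA5 (chr11:116789367-116792421, minus strand) had 35.2, 41.1 and 47.1 CPM in 3D and 19.7, 26.5 and 28.9 CPM in 2D. Its groups also stood apart but lay closest to each other among these 4 genes, at 1.65-fold (log2 fold change 0.72 ± 0.17, edgeR quasi-likelihood test, Benjamini-Hochberg adjusted p = 0.00692).

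Of the 3 remaining genes within 50 kb of these members, all tested, 0 were called higher and 1 was lower by the edgeR quasi-likelihood test. At an unadjusted p under 0.05, 1 was higher, and DESeq2 and limma-voom each called 0 higher. Over all tested genes, 19.0% were higher and 17.6% lower by the edgeR test. SIK3, a salt-inducible kinase gene, was lower in 3D (34.1 ± 2.17 CPM, against 48.4 ± 4.50 CPM in 2D, adjusted p = 0.0102). ZPR1, which encodes a zinc finger protein and lies between APOA5 and BUD13, had 49.5 ± 3.21 CPM in 3D and 50.6 ± 7.66 CPM in 2D (adjusted p = 0.877). BUD13, a splicing factor gene, had 19.99 ± 0.704 CPM in 3D and 15.1 ± 2.04 CPM in 2D (adjusted p = 0.0575). The longest transcripts of SIK3 and ZPR1 have 6331 and 6566 bases, against 604 to 1929 bases for the 4 members. Of tested genes of 5000 to 10000 bases, 34.9% were lower in 3D. These neighbours are compared as counted, without correction for length.

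**Figure D2:**
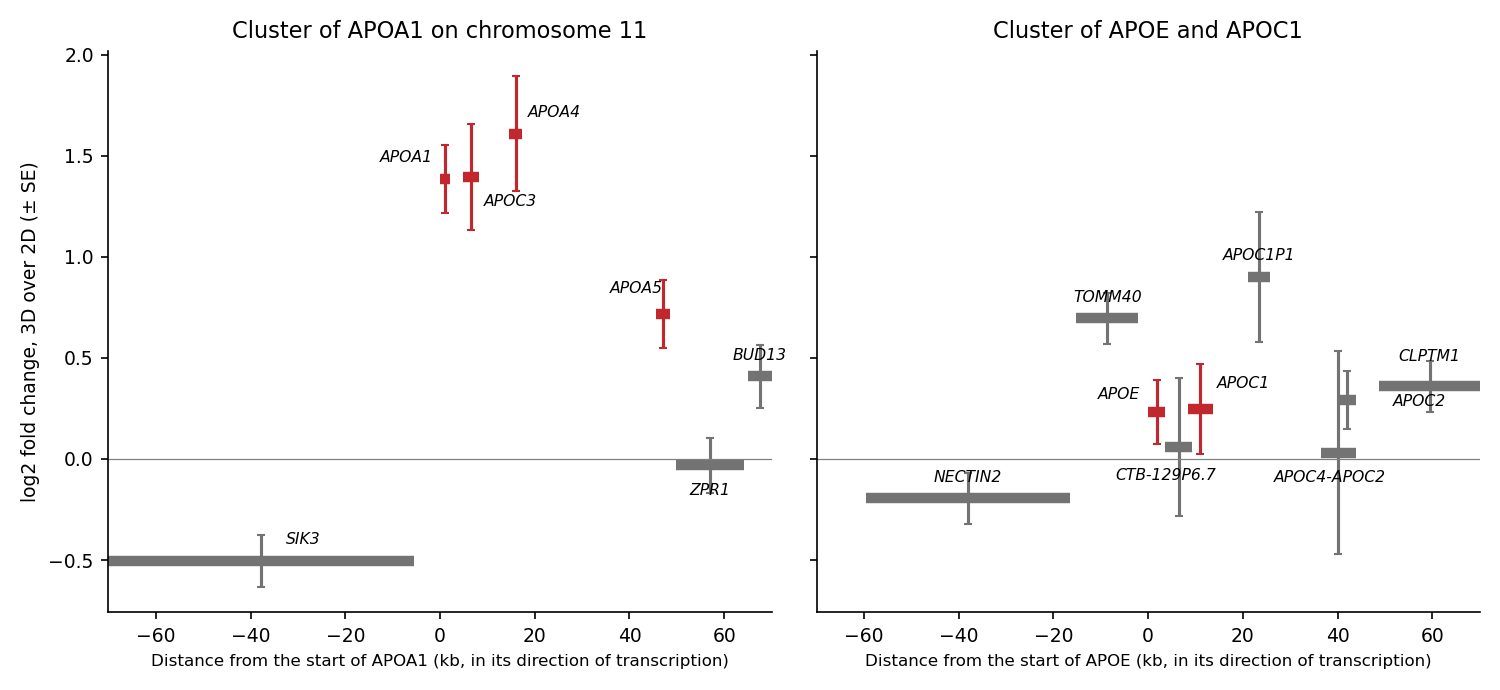
Log2 fold change of 3D over 2D (edgeR, vertical axis, whiskers ± SE) against distance in kb from the start of APOA1 or of APOE, with members in red, other tested genes of the locus in grey and each bar spanning its gene. At the chromosome 11 cluster the 4 members lie between 0.72 and 1.61 while SIK3 lies below 0, and at the chromosome 19 cluster APOE and APOC1 lie under TOMM40 and APOC1P1. Fold changes are as counted, without correction for transcript length.

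APOB, at chr2:21001429-21044074 on the minus strand, is the structural protein of very-low-density lipoprotein. It had 5135, 9040.4 and 5716 CPM in 3D, against 16555, 18504 and 18208 CPM in 2D. All 3D libraries stood far below all 2D libraries, and 3D replicate 2 was the highest of the 3D group. Means were 6631 ± 2107 CPM in 3D and 17756 ± 1051 CPM in 2D (SD, n = 3 each), so APOB was 2.68-fold lower in 3D (log2 fold change -1.42 ± 0.22, edgeR quasi-likelihood test, Benjamini-Hochberg adjusted p = 0.000614). APOB took 0.543 to 0.880% of all counts in the 3D libraries and 1.63 to 1.85% in the 2D libraries.

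Both table genes within 50 kb of APOB were lower in 3D as well. AC010872.1, which overlaps APOB, had 0.592 ± 0.258 CPM in 3D and 3.11 ± 0.847 CPM in 2D (adjusted p = 0.00132, edgeR test). RP11-116D2.1, which lies 0.511 kb beyond the end of APOB on the same strand, had 5.06 ± 3.38 CPM in 3D and 15.5 ± 4.70 CPM in 2D (adjusted p = 0.0398, edgeR test). Whether reads counted for it came from APOB transcripts was not tested. How strand was handled in counting is not given in the sources used here, so reads of APOB and of genes that overlap it cannot be told apart.

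APOB has the longest transcript of the 10 genes, 14121 bases, against 604 to 1929 bases for the other 9, and fold changes in these libraries moved with transcript length. Of 520 tested genes with a longest transcript of 10000 bases or more, 52.7% were lower in 3D and the median log2 fold change was -0.48. Of 786 tested genes under 1000 bases, 2.67% were lower, 31.9% were higher, and the median was 0.45. Among the longest transcripts, 22 genes (4.23%) had a fold change below that of APOB. After a correction for length and GC content, APOB was 1.87-fold lower in 3D (log2 fold change -0.90, edgeR adjusted p = 0.00656). The cause of the trend with length was not tested. Values of genes outside the 10 are given as counted unless the correction is named.

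The same correction touched the short members in the other direction. APOA1 was still higher in 3D at a log2 fold change of 0.94 (edgeR adjusted p = 0.00269), as was APOA4 at 1.21 (adjusted p = 0.00665), whereas APOC3 at 0.85 (adjusted p = 0.0727) and APOA5 at 0.41 (adjusted p = 0.108) no longer passed the threshold. APOM was further lowered, to -1.13 (adjusted p = 0.00816). APOA2 stood at -0.59 (adjusted p = 0.0697), and APOC1, APOE and APOH, at -0.22, -0.30 and 0.06, did not pass the test either. By this corrected fit 33.5% of all tested genes were called.

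**Figure D3:**
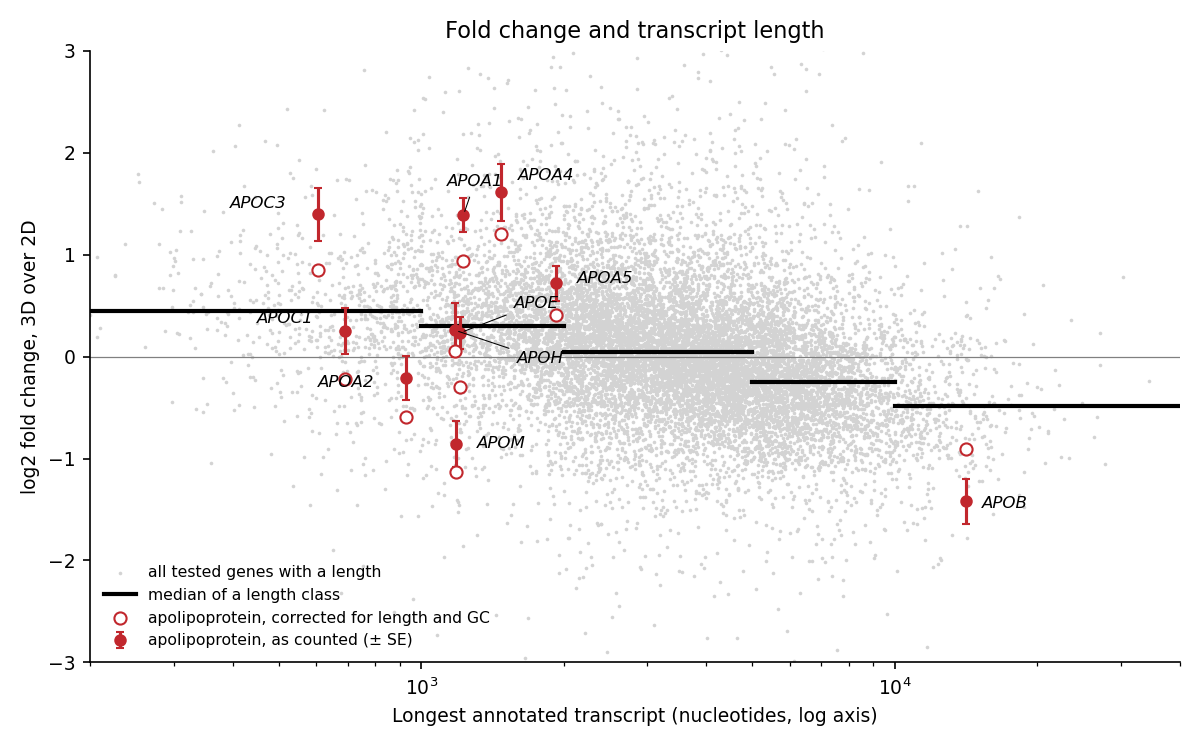
Log2 fold change of 3D over 2D (edgeR, vertical axis) against the longest annotated transcript in nucleotides (log axis) for all tested genes with a length in grey, with the members in red as counted (filled, ± SE) and after correction for length and GC content (open), and a black line at the median of each length class; genes beyond the axes are not drawn. The medians, all of fold changes as counted, lie between 0.45 under 1000 nucleotides and -0.48 at 10000 nucleotides and over. APOB as counted lies below the median of its class, and no median of corrected values is drawn.

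APOM (chr6:31652416-31658211, plus strand), the lipocalin of high-density lipoprotein that binds sphingosine-1-phosphate, was the second gene lower in 3D. It had 36.2, 57.0 and 46.8 CPM in 3D, against 111, 61.2 and 81.9 CPM in 2D. The groups came close, with 3D replicate 2 just under 2D replicate 2, but did not overlap. APOM was 1.81-fold lower in 3D (46.6 ± 10.4 CPM in 3D and 84.7 ± 25.0 CPM in 2D, SD, n = 3 each, log2 fold change -0.86 ± 0.23, edgeR quasi-likelihood test, Benjamini-Hochberg adjusted p = 0.0160). Without 3D replicate 1 the adjusted p was 0.0586. BAG6, a chaperone gene that overlaps APOM, did not pass the test (317 ± 6.89 CPM in 3D, 332 ± 25.4 CPM in 2D, adjusted p = 0.698). The RefSeq start of APOM in the promoter table lies 3478 bases downstream of the start of the deposited gene span, so the window before it (chr6:31655644-31655893, plus strand, RefSeq GRCh38.p14) lies inside that span. The window is shown for contrast with the windows of APOA4 and APOA5. It holds GGGTCA, as the APOA4 window does, at -33 to -28, in a gene that fell.
APOM: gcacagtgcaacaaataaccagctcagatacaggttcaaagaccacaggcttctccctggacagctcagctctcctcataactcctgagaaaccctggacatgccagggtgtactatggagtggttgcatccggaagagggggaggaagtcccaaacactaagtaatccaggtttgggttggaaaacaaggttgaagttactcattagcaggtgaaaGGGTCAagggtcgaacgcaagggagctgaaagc

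The same motif stood in the window of APOC1, on the minus strand at -124 to -119, and none of the 5 motifs was found in those of APOA2, APOE and APOH. The RefSeq starts of APOC1 and APOH also lie inside the deposited gene spans, 425 and 27111 bases from their starts. Promoter windows were matched for 7 of the 10 genes, all but APOA1, APOB and APOC3. Matches thus occurred in 2 genes that rose, 1 that fell and 1 that did not pass the test.

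Of the 4 genes that did not pass the test, APOA2 (chr1:161222292-161223632, minus strand), the second protein of high-density lipoprotein, had 847, 1519.7 and 1648 CPM in 3D and 1633, 1536 and 1483 CPM in 2D. 3D replicate 1 stood alone below all the other libraries, which lay within a narrow range. The log2 fold change was -0.21 with a 95% interval of -0.69 to 0.26 (edgeR adjusted p = 0.471). APOE (chr19:44905754-44909394, plus strand), the ligand through which remnants are taken up, had 981, 901 and 1318 CPM in 3D and 873, 938 and 910.3 CPM in 2D. Its groups overlapped, with 3D replicate 3 highest, and the log2 fold change was 0.23 with an interval of -0.11 to 0.58 (edgeR adjusted p = 0.269).

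APOC1 (chr19:44914247-44919350, plus strand), which inhibits lipoprotein uptake and the transfer protein CETP, had 103, 167 and 213 CPM in 3D and 138, 147 and 123 CPM in 2D. APOH (chr17:66212033-66256526, minus strand), also called beta-2-glycoprotein I, binds phospholipids and had 658, 1401 and 1499.8 CPM in 3D and 988, 973 and 1012 CPM in 2D. For both genes, 3D replicate 1 lay below all 2D libraries and 3D replicates 2 and 3 above them. Log2 fold changes were 0.25 (95% interval -0.26 to 0.75, edgeR adjusted p = 0.420) for APOC1 and 0.26 (-0.33 to 0.85, adjusted p = 0.469) for APOH. Without 3D replicate 1, APOC1 was higher in 3D at 0.47 (adjusted p = 0.0187) and APOH at 0.54 (adjusted p = 0.00562), which would make 6 genes higher in place of 4. In that fit 35.9% of all tested genes were called.

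APOE and APOC1 share a second cluster, 4852 bases apart on chromosome 19 of the genome. Of the 7 other table genes within 50 kb, all tested, 3 were higher and 0 lower in 3D by the edgeR test, with 0 lower at an unadjusted p under 0.05 and 0 by DESeq2 or limma-voom. The edgeR test called 19.0% of all tested genes higher and 17.6% lower. TOMM40, a subunit of the mitochondrial protein import pore, had 167 ± 23.3 CPM in 3D and 103 ± 3.11 CPM in 2D (adjusted p = 0.00173, edgeR test). CLPTM1, which encodes a membrane protein, had 82.2 ± 9.13 CPM in 3D and 64.0 ± 3.74 CPM in 2D (adjusted p = 0.0406). The third, APOC1P1, is annotated as a transcribed pseudogene and had 3.55 ± 1.19 CPM in 3D and 1.90 ± 0.371 CPM in 2D (adjusted p = 0.0450). How reads that fit more than 1 gene were counted is not given, and the sequences of APOC1 and APOC1P1 were not compared. The values of APOC1 and APOC1P1 are thus uncertain to an unknown degree, as are those of genes that overlap them.

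Spread between libraries was wider in 3D for most of the 10 genes: the coefficient of variation was larger in 3D for 8 of them. Its share over all tested genes was not computed. Over the whole table, chi-square per degree of freedom between libraries was 21.1 to 29.5 in 3D and 11.2 to 17.0 in 2D. The coefficient of variation of APOH was 38.8% in 3D and 1.96% in 2D, and that of APOA2 32.1% in 3D and 4.90% in 2D. The exceptions were APOA5, at 14.5% in 3D and 19.2% in 2D, and APOM, at 22.3% in 3D and 29.5% in 2D.

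Summed over the 10 genes, apolipoprotein messenger RNA amounted to 10681, 16299 and 14496 CPM in the 3D libraries, against 21483, 23357 and 23303 CPM in the 2D libraries. All 3D sums lay below all 2D sums. Leaving APOB out turned the order round: the other 9 genes summed to 5555, 7271 and 8787 CPM in 3D and to 4947, 4874 and 5116 CPM in 2D, with every 3D sum above every 2D sum. Of these sums APOA1 alone made up 2809.7, 3015 and 3832 CPM in 3D and 1135, 1145 and 1415 CPM in 2D. A sum without APOB and APOA1 was not taken. The fitted length and GC shift of these 9 genes was 0.18 to 0.56 (log2, 3D minus 2D), and the sums were not corrected for it. APOB made up 47.6 ± 8.01% of the summed CPM in 3D and 78.0 ± 1.08% in 2D (SD, n = 3 each).

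Since a long transcript collects more reads, levels of different genes were compared as CPM per kb of the longest annotated transcript. On that scale the order in 3D was APOA1, APOA2, APOH, APOE, APOB, APOC3, APOC1, APOM, APOA5 and APOA4. In 2D it was APOA2, APOB, APOA1, APOH, APOE, APOC1, APOC3, APOM, APOA5 and APOA4. Neighbours in this order overlapped between libraries for APOA2 with APOH, APOH with APOE and APOC3 with APOC1 in 3D, and for APOC3 with APOM in 2D. The lower end, APOM, APOA5 and APOA4, kept its order in both cultures.

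APOA1 had 2620 ± 441 CPM per kb in 3D and 1003 ± 129 in 2D, which gave it rank 17 in 3D and rank 36 in 2D among 13746 genes. APOB had 469 ± 149 CPM per kb in 3D and 1256 ± 74.3 in 2D, which gave it rank 100 in 3D and rank 29 in 2D. As a share of the summed CPM per kb of the 10 genes, APOA1 held 38.2 ± 4.82% in 3D and 17.0 ± 1.86% in 2D, and APOB 6.84 ± 1.98% in 3D and 21.3 ± 1.09% in 2D. Counted in this way, APOA1 held the largest share in each 3D library, and APOA2 held it in each 2D library. Division by length does not remove the trend of fold change with length. The fitted length and GC shift was 0.45 for APOA1 and -0.53 for APOB (log2, 3D minus 2D). Ranks and shares were not corrected for it.

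**Figure D4:**
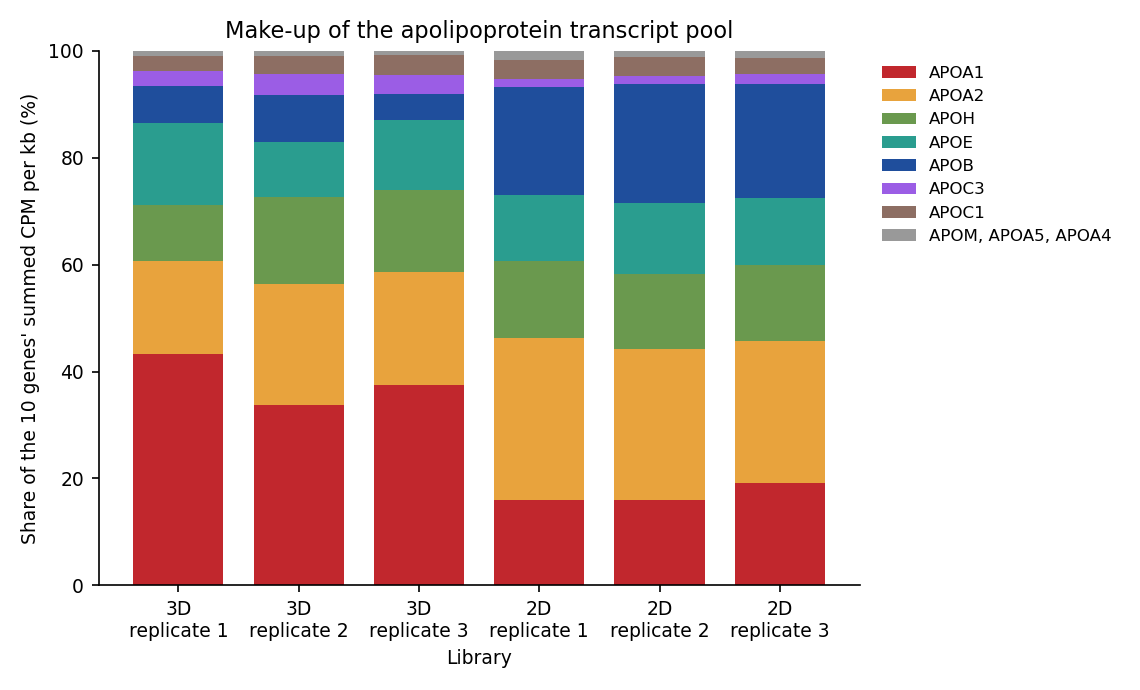
Share of each apolipoprotein gene in the summed CPM per kb of the 10 genes, in percent, as 1 stacked bar per library with the 3D libraries left of the 2D libraries. APOA1 fills 33.8 to 43.3% of the 3D bars and 15.9 to 19.1% of the 2D bars, and APOB 4.85 to 8.80% of the 3D bars and 20.2 to 22.3% of the 2D bars. The shares are not corrected for the trend of fold change with length.

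Ratios between 2 genes of the same library do not move with library scaling. The log2 ratio of APOB to APOA1 was 0.870, 1.58 and 0.577 in 3D, against 3.87, 4.01 and 3.69 in 2D, a 7.18-fold lower ratio in 3D. With the length and GC correction the ratio was 3.64-fold lower in 3D (log2 difference of 3D minus 2D -1.86, against -2.84 as counted), and the groups still stood apart. On the linear scale the ratio was 1.49 to 3.00 in 3D libraries and 12.9 to 16.2 in 2D libraries. The groups stood apart, and the exact 2-sided permutation test gave p = 0.1, the smallest that 3 against 3 allows (adjusted p = 0.16 over 8 pairs). No such test can pass 0.05 here.

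In the same test, 4 further pairs stood apart between the cultures, each with an exact p of 0.1 and an adjusted p of 0.16. APOM over APOA1 was 4.67-fold lower in 3D, APOA2 over APOA1 3.14-fold lower and APOA5 over APOA1 1.57-fold lower, and APOC3 over APOE was 2.17-fold higher. The ratios of APOC3 to APOA1 (log2 difference of 3D minus 2D -0.05), APOA4 to APOA1 (0.21) and APOC1 to APOE (-0.03) overlapped between the cultures, with exact permutation p-values of 1, 0.4 and 1. For 2 of these pairs the overlap came from 3D replicate 1 alone: without it, APOC3 to APOA1 (0.20) and APOC1 to APOE (0.21) were higher in 3D with no overlap between the cultures, each with an exact p of 0.1, the smallest that 2 against 3 allows. With 3 libraries a group this does not show that those ratios were equal.

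The wider family was mixed as well. Of 15 other apolipoprotein genes listed, 9 were tested, of which 3 rose, 3 fell and 3 did not pass the test (median log2 fold change 0.29, against 0.02 over all tested genes). The share called over all tested genes was 36.6%. APOL4 (3.57 ± 0.461 CPM in 3D, 0.8202 ± 0.385 CPM in 2D, adjusted p = 0.00162) and APOL1, the trypanosome lytic factor carried on high-density particles (109 ± 40.1 CPM in 3D, 39.7 ± 5.19 CPM in 2D, adjusted p = 0.00206), were higher in 3D. APOL6 of the same cluster was lower (22.7 ± 11.7 CPM in 3D, 98.7 ± 5.18 CPM in 2D, adjusted p = 0.00299), as was APOF, the lipid transfer inhibitor protein (3.37 ± 1.17 CPM in 3D, 7.57 ± 0.505 CPM in 2D, adjusted p = 0.00590). The longest APOL6 transcript has 10121 bases, a length at which 52.7% of tested genes were lower in 3D. CLU, or apolipoprotein J, a secreted chaperone, was lower (254 ± 31.0 CPM in 3D, 382 ± 10.2 CPM in 2D, edgeR adjusted p = 0.00433). APOC2, the activator of lipoprotein lipase, had 152 ± 28.7 CPM in 3D and 124 ± 7.77 CPM in 2D (adjusted p = 0.135).

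**Figure D5:**
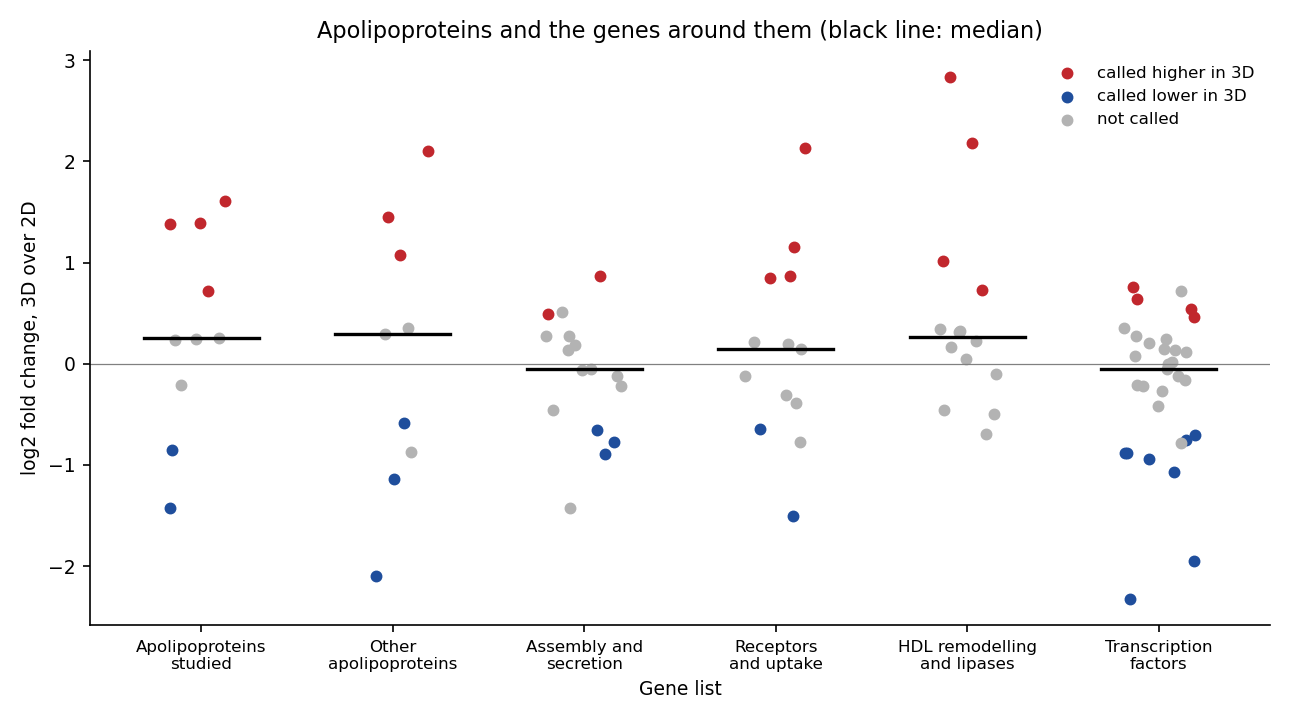
Log2 fold change of 3D over 2D (edgeR, vertical axis) of every tested gene of the 10 apolipoproteins and of the 5 lists around them, 1 list per column, with red for called higher, blue for called lower, grey for not called and a black line at the median. Genes called in both directions stand in every column but that of the remodelling genes and lipases, where 4 are called higher.

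Of 16 genes that load lipid onto APOB and export the particle, all tested, 2 rose, 3 fell and 11 were not called (median -0.05). These shares lie near those over all tested genes, of which 36.6% were called. MTTP, the transfer protein that lipidates APOB, had 127 ± 23.2 CPM in 3D and 116 ± 9.31 CPM in 2D (adjusted p = 0.489, edgeR test). DGAT1, which makes triglycerides (94.1 ± 10.4 CPM in 3D, 51.4 ± 12.2 CPM in 2D, adjusted p = 0.00292), and CIDEB, a lipid droplet protein (61.5 ± 9.20 CPM in 3D, 43.8 ± 3.30 CPM in 2D, adjusted p = 0.0164), were higher in 3D. TMEM41B, a lipid scramblase of the endoplasmic reticulum (43.1 ± 12.9 CPM in 3D, 80.4 ± 7.39 CPM in 2D, adjusted p = 0.00402), and MIA3, a cargo receptor for large secretory loads (51.2 ± 5.56 CPM in 3D, 87.8 ± 9.19 CPM in 2D, adjusted p = 0.00106), were lower. The longest MIA3 transcript has 8142 bases, and 34.9% of tested genes of 5000 to 10000 bases were lower in 3D.

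Among 13 tested receptor and uptake genes, 4 rose and 2 fell (median 0.14), where 19.0% of all tested genes were called higher and 17.6% lower. SCARB1, the receptor of high-density lipoprotein, had 195 ± 2.15 CPM in 3D and 168 ± 5.64 CPM in 2D (adjusted p = 0.148, edgeR test). The APOE receptors split: LRP8 was 2.23-fold higher in 3D (adjusted p = 0.000904), VLDLR 2.83-fold lower (adjusted p = 0.000829) and LRP1 1.56-fold lower (adjusted p = 0.0196). All 3 have long transcripts, of 7648 bases for LRP8, 9163 for VLDLR and 14897 for LRP1. Of tested genes of 5000 to 10000 bases 34.9% were lower in 3D, and of those of 10000 bases or more 52.7%. The fatty acid transporter CD36 rose to 3.03 ± 0.462 CPM in 3D, against 0.679 ± 0.386 CPM in 2D (adjusted p = 0.00292).

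Of 14 tested genes that remodel particles in plasma, 4 rose and 0 fell by the edgeR test (median 0.27), while 1 was lower at an unadjusted p under 0.05, by DESeq2 and by limma-voom. By the edgeR test 19.0% of all tested genes were higher and 17.6% lower. ANGPTL4, an inhibitor of lipoprotein lipase, was 7.14-fold higher in 3D (16.9 ± 5.59 CPM in 3D, 2.35 ± 0.467 CPM in 2D, edgeR adjusted p = 7.72e-05), and ANGPTL8, which acts with its relatives on the same enzyme, 4.55-fold higher (27.7 ± 8.77 CPM in 3D, 6.08 ± 1.61 CPM in 2D, adjusted p = 0.000223). Hepatic lipase, LIPC, was 1.66-fold higher (adjusted p = 0.0145). LCAT, the enzyme that APOA1 activates, had 40.9 ± 10.7 CPM in 3D and 32.8 ± 3.13 CPM in 2D (adjusted p = 0.181), and ABCA1, which loads APOA1 with lipid, 99.6 ± 29.5 CPM in 3D and 141 ± 14.1 CPM in 2D (adjusted p = 0.0573).

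Of 31 transcription factors and co-factors known to act on apolipoprotein genes or hepatic lipid genes, all tested, 4 rose and 8 fell (median -0.05). The background over all tested genes was 36.6% called, 19.0% higher and 17.6% lower. HNF4A had 325 ± 23.8 CPM in 3D and 354 ± 20.2 CPM in 2D (adjusted p = 0.453, edgeR test), and NR1H3, the liver X receptor alpha, 16.1 ± 1.06 CPM in 3D and 16.6 ± 1.62 CPM in 2D (adjusted p = 0.828). The co-activator PPARGC1A fell 5.00-fold, to 15.1 ± 2.54 CPM in 3D, against 76.1 ± 13.1 CPM in 2D (adjusted p = 1.89e-05). CEBPB was 3.86-fold lower (91.8 ± 33.7 CPM in 3D, 354 ± 37.5 CPM in 2D, adjusted p = 0.000465) while its relative CEBPA was 1.69-fold higher (212 ± 9.37 CPM in 3D, 125 ± 17.5 CPM in 2D, adjusted p = 0.00118). PPARA, a fatty acid receptor, was 1.85-fold lower in 3D (adjusted p = 0.000288), and NR2F6, an orphan nuclear receptor, 1.56-fold higher (adjusted p = 0.00292).

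Markers of other cell types were measured as well, with 36.6% of all tested genes called in either direction as the background. Of 13 hepatocyte markers, 2 rose (KRT8 and TF), 2 fell (AHSG and FGA) and 9 did not pass the edgeR test, among them ALB with 9849 ± 3472 CPM in 3D and 6237 ± 1322 CPM in 2D (adjusted p = 0.0698) and TTR with 103 ± 41.5 CPM in 3D and 138 ± 15.0 CPM in 2D (adjusted p = 0.231). Of 4 tested cholangiocyte markers, KRT19, SPP1 and EPCAM rose and SOX9 fell, and their list summed to 1051 to 1287 CPM in 3D and 696 to 899 CPM in 2D. Of 3 tested enterocyte markers, VIL1 and RBP2 rose, with a summed level of 363 to 418 CPM in 3D and 236 to 299 CPM in 2D, nearly all of it from VIL1. RBP2 and FABP2, which are more particular to enterocytes, were at most 3.33 CPM in any library.

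The 4 endothelial markers in the table, PECAM1, CDH5, VWF and TIE1, did not pass the edgeR test (1 was higher and 0 lower at an unadjusted p under 0.05, and DESeq2 and limma-voom called 0) and summed to 3.09 to 8.07 CPM in 3D and 2.49 to 4.97 CPM in 2D. Of 3 blood and macrophage markers, CD68 rose while CD14 and LYZ did not pass the test, and the list summed to 435 to 1013 CPM in 3D and 978 to 1474 CPM in 2D, mostly from LYZ. Of 3 fibroblast markers, COL1A1 rose and PDGFRB and ACTA2 fell, with sums of 25.4 to 42.7 CPM in 3D and 35.4 to 44.7 CPM in 2D. None of the tested markers had 0 counts in a whole group. All samples were of HepG2 cells, and no other cell type is labelled. Whether the levels of these markers bore on the apolipoprotein differences was not tested.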

How the data were processed

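Estimated counts of genes in 6 libraries were deposited as 1 table. The submitters' processing notes name Partek, STAR 2.4.1d and build hg38. For annotation, counting settings and strand handling, the sources used here name nothing. The lowest total of a listed gene was 10 counts, and 61.7% of values were whole numbers (tolerance 0). The estimated counts deposited by the authors were rounded and tested with edgeR 4.0.16 in R 4.3.3 (filterByExpr, TMM, robust quasi-likelihood fit, culture as the only term), with Benjamini-Hochberg adjustment over 15314 genes. Levels are TMM-scaled CPM, and a count of 3, the detection floor, equals 0.167 to 0.315 CPM, counting error only. Transcript lengths and GC content came from GENCODE 29, with 89.8% of tested genes matched, and the correction was a loess fit of span 0.5. Samples were grouped by their labels. The scripts were tested on simulated data.

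The genes and lists were chosen with earlier results of these data known. Besides the 10 members, the genes named were tested neighbours within 50 kb, up to 2 called genes per list and direction with at least 1 CPM, and a set named whatever their result, some of which are not reported here. EPCAM, FABP2, CD14, LYZ and the endothelial markers were named after their values were seen. Alternatives were DESeq2 1.42.0, limma-voom (limma 3.58.1), other scalings and filters, the length and GC correction, the replicate block, and leaving out libraries. Same-numbered libraries of the groups had correlations of residuals between -0.0783 and 0.0530, so the numbers were not taken to pair samples. Libraries of a group differed by more than sampling noise (chi-square per degree of freedom 11.2 to 29.5).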

Additional observations from a re-analysis of the deposited data

How the results depend on the processing

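APOA1, APOA4 and APOB kept their direction and their side of the threshold under all 17 alternatives, with log2 fold changes of 0.93 to 1.49 for APOA1, 1.19 to 1.84 for APOA4 and -1.71 to -0.90 for APOB. APOC3 no longer passed under the length and GC correction (0.85, adjusted p = 0.0727) or with the replicate block added to it (0.77, adjusted p = 0.0532), nor did APOA5 under the correction alone (0.41). The correction left 2 members called higher. With it and with the block added, APOC1 turned to -0.22 and -0.27 and APOE to -0.30 and -0.33, and APOH to -0.0059 with the block added.

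The replicate block alone changed 1 member: APOM at -0.83 (adjusted p = 0.0519) no longer passed, which left 1 member called lower. The numbers share no more than a name, so this is no test of pairing.

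Leaving out 1 library at a time gave log2 fold changes of -1.06 to -0.62 for APOM, -0.011 to 0.47 for APOC1, 0.052 to 0.54 for APOH and -0.39 to 0.016 for APOA2. Members called higher ranged from 4 to 6 and lower from 1 to 2. Without 3D replicate 1, APOA2 turned to 0.016 and APOM at -0.72 did not pass. The log2 ratio of APOC3 to APOA1 ranged from -0.24 to 0.20, and that of APOC1 to APOE from -0.198 to 0.21, with 0.012 without 2D replicate 1, 0.0072 without 2D replicate 2 and 0.045 under the length and GC correction. Leaving out 3D replicate 1 and 2D replicate 2, which earlier work on these data doubted, gave 0.0095 for APOA2 and put APOC1 (0.53) and APOH (0.52) past the threshold.

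Among the lists, other apolipoproteins called higher numbered 5 without those 2 libraries. Assembly genes called higher numbered 1 under the correction with and without the block and 1 to 2 with 1 library left out, and those called lower 5 with limma-voom and 3 to 5 with 1 left out. Receptor genes called lower ranged from 2 to 4 with 1 left out, and remodelling genes called lower were 1 with DESeq2, limma-voom and the replicate block and 0 to 1 with 1 left out. Some named genes outside the 10 turned while below the threshold: under the correction, without and with the block, LCAT (-0.063 and -0.091), HNF4A (0.044 and 0.037), APOC2 (-0.19 and -0.21) and ZPR1 (0.25 and 0.26). With 1 library left out, NR1H3 ranged from -0.11 to 0.026 and ZPR1 from -0.11 to 0.082, and without the 2 doubted libraries ZPR1 was 0.14. The causes were not tested. APOA4, at 521 counts in all, is the member whose precision depth limits most.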
